A study of Laccaria bicolor with 20 samples.

Results

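Mycelium of the ectomycorrhizal fungus Laccaria bicolor was grown with a surplus of ammonium (+N) or with a surplus of phosphate (+P), and the 2 transcriptomes were compared directly. The comparison used the 3 libraries titled Plus N and the 2 titled Plus P, 5 of the 20 RNA-seq libraries of the series, and each library was described in the labels as a biological replicate. Colonies of strain S238N were pre-cultured for 2 weeks on cellophane over modified Melin Norkrans (MMN) agar and then kept for 1 week, at 25 °C and in the dark, on control MMN medium or on a changed one. The control, +N and +P media had in common 3.67 mM KH2PO4, 1.89 mM diammonium phosphate, casein hydrolysate (1%), and glucose and malt extract (0.5% of each). The +N medium received 25 mM of an ammonium chloride salt on top of this base, and the +P medium received 25 mM KH2PO4. Added chloride in +N and added potassium in +P came with the nutrients and cannot be told apart from them. The 3 libraries from control MMN medium, which lacked both additions, were used as the reference level.

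Ectomycorrhizal fungi take up ammonium and phosphate from soil and pass part of both to the roots of trees. Ammonium enters hyphae through transporters of the AMT family and is built into glutamine and glutamate by glutamine synthetase and glutamate dehydrogenase. Nitrate is an alternative source, which is imported and reduced to nitrite and then to ammonium, and fungi commonly repress this route when ammonium is plentiful. Phosphate is taken up by membrane transporters, released from organic forms by acid phosphatases and stored as polyphosphate chains, which polyphosphate phosphatases shorten.

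The deposited read counts summed to 13495005, 33122623 and 11475167 in the +N libraries and to 11720013 and 16555096 in the +P libraries. Levels are given in CPM, the share of a library's reads that fell on a gene after the library totals had been scaled by TMM. Of 23130 gene models, 14725 had enough reads to be tested. Euclidean distances over log2 CPM averaged 51.6 among the +N libraries, 57.3 between the +P libraries and 89.4 between +N and +P, and the lowest of the 6 distances between the media was 83.2. The +N libraries lay on average 82.9 from the control libraries and the +P libraries 65.5. The +P libraries did not stand apart from the medium with surplus glucose (+C), since their mean distance to the +C libraries was 57.0 and the library nearest to each of them was a +C library.

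A large share of the transcriptome differed between the 2 salt additions, and about as many genes were higher in +N as in +P. In a quasi-likelihood F-test across all 20 libraries, 4685 genes (31.8% of those tested) passed an adjusted p-value of 0.05 and are named called in the following. Of these, 2347 (15.9% of the tested genes) were higher in +N and 2338 (15.9%) higher in +P. Among called genes 179 (1.22% of the tested genes) were over 4-fold higher in +N and 102 (0.693%) over 4-fold higher in +P. In 4632 of the 4685 called genes the 3 +N libraries all lay on one side of both +P libraries. Over all tested genes they lay above both in 25.4% and below both in 25.7%. Being called itself favours such a separation, so that the count is no separate evidence. Without +P replicate 1, 1504 genes were called higher in +P and 1630 higher in +N. Genes called against the control were fewer in +P, with 623 genes higher (4.23%) and 824 lower (5.6%), than in +N, with 2073 higher (14.1%) and 2319 lower (15.7%). The comparison for +P rested on 2 libraries and that for +N on 3, which by itself lowers the number of calls in +P.

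**Figure D1:**
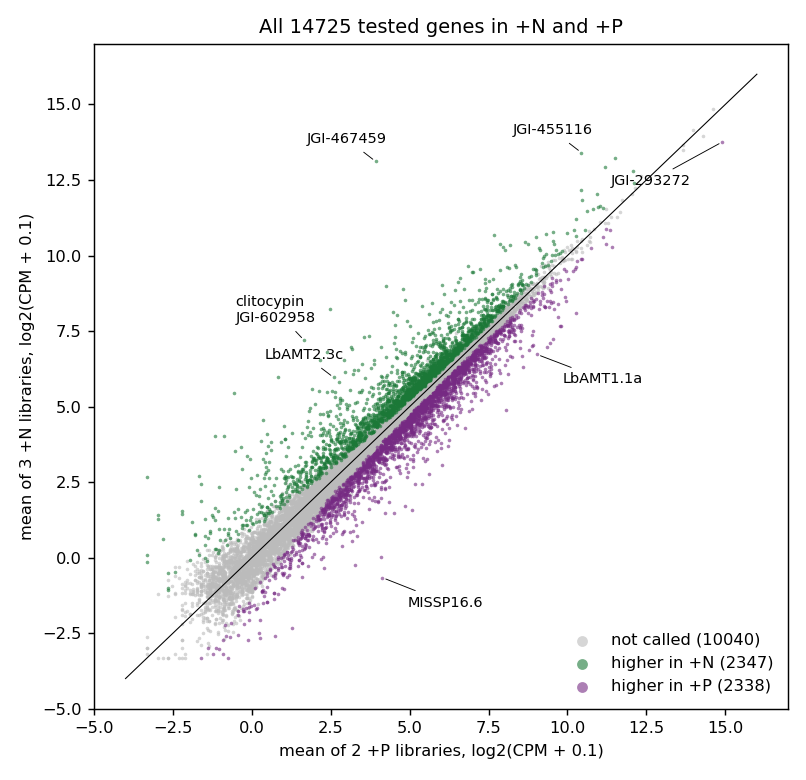
Mean level of each tested gene in the 3 +N libraries (vertical axis) against its mean in the 2 +P libraries (horizontal axis), both as log2(CPM + 0.1). Each point is 1 of 14725 genes, the line marks equal levels, and JGI-467459 is the gene farthest above the line at high expression, with 8860 CPM in +N and 15.1 CPM in +P.

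The level in control medium was used to describe on which side a difference lay. Among genes called higher in +N, the mean log2 CPM of the control was nearer to +P than to +N, or beyond +P, in 68.4%. The share was 84.4% for the 179 genes over 4-fold higher in +N. For genes higher in +P the corresponding share was 70.2%, and 65.7% for the 102 genes over 4-fold. On the scale of mean CPM the last share was 47.1%, so that for genes over 4-fold higher in +P the answer depended on the scale. These shares are descriptions without a test.

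Named genes and the lists below were selected by fixed rules, given with the methods, and annotations come from the study's supplementary lists and RefSeq symbols. An annotation was found for 3438 of the 14725 tested genes. Annotated genes were called more often than the others were, with 21.1% higher in +N and 20.4% higher in +P, and counts of list members are to be read against these shares as well as against 15.9% for all genes. The median log2 fold change between +N and +P was -0.018 over all tested genes. Fold changes are given as +N relative to +P, with their standard error (SE), so that a negative value means a higher level in +P.

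The genes with the largest differences in favour of +N were at low levels in +P and control medium. The most abundant of them was JGI-467459, whose annotations name both a splicing factor and a small secreted protein of unknown function. Its level was 8692, 9028 and 8859 CPM in the +N libraries, 14.3 and 15.8 CPM in the +P libraries and 15.2 to 22.1 CPM in the control libraries. All +N libraries thus lay far above all +P and control libraries, and the log2 fold change was 9.19 ± 0.56 (adjusted p = 5.42e-11). In the other media the mean level of this gene was highest in +C, at 65.3 CPM, and lowest without ammonium salts (−N), at 1.70 CPM. JGI-656382, for which no annotation was found, was at 324, 300.0 and 282 CPM in +N and at 4.80 and 6.02 CPM in +P (log2 fold change 5.78 ± 0.21, adjusted p = 3.83e-14).

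JGI-596686, annotated as a mycorrhiza-induced small secreted protein (MiSSP), had 73, 187 and 82 reads in the +N libraries and no read in either +P library, which made it at least 29.2-fold higher in +N. JGI-583480, without annotation, had 13, 13 and 17 reads in +N and none in +P or control, at least 4.49-fold higher in +N, and its call was lost without +P replicate 2 (adjusted p = 0.0593). A further pair of MiSSP genes each had a single read in the +P libraries together. JGI-620230 had 129 reads in +N, a ratio of 68.3 with a 95% counting interval from 12.04 to 2718, and JGI-332226 (MISSP17.8) had 139 reads, a ratio of 73.6 with an interval from 12.99 to 2928. The chitinase JGI-674406, an enzyme that cleaves chitin of the cell wall, was at 15.4, 18.4 and 14.8 CPM in +N and at 0.515 and 0.172 CPM in +P (log2 fold change 5.66 ± 0.57, adjusted p = 8.71e-08), with 6.50 without +P replicate 1 and 4.96 without +P replicate 2. The single +P read of JGI-620230 and that of JGI-332226 were both in replicate 2, so that no read was left without it. The remaining members of this set of 10 were 2 clitocypins and an acetylglucosaminyltransferase, described with their families below.

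Genes with the largest differences in favour of +P were mostly expressed at low levels. JGI-315282 (MISSP16.6) was at 22.1 and 12.9 CPM in +P, at 0.302, 0.860 and 0.434 CPM in +N and at 3.11 to 4.01 CPM in control (log2 fold change -4.78 ± 0.26, adjusted p = 1.19e-11), with -5.54 without +N replicate 2. It was higher in +P than in control (log2 fold change 2.23 ± 0.20, adjusted p = 3.29e-07) and lower in +N than in control (-2.55 ± 0.29, adjusted p = 5.36e-07). JGI-708196, with domains of a cytochrome b5 fatty acid desaturase, which introduces double bonds into lipids, showed the same order of levels, with 38.6 and 28.2 CPM in +P, 7.29 to 10.6 CPM in control and 2.26 to 3.55 CPM in +N (log2 fold change -3.51 ± 0.18, adjusted p = 7.69e-12). JGI-654096, annotated as a protein of the 60S ribosomal subunit, was at 11.4 and 22.6 CPM in +P and at 0.227, 0.794 and 1.74 CPM in +N (log2 fold change -4.30 ± 0.56, adjusted p = 3.15e-06), with -3.71 without +P replicate 2.

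For a further pair of genes a difference from control was detected in +N but not in +P. The glutathione S-transferase JGI-438154, of a family that couples glutathione to reactive compounds, was at 220.0 and 314 CPM in +P, 206 to 237 CPM in control and 33.05, 30.98 and 24.6 CPM in +N (log2 fold change -3.17 ± 0.26, adjusted p = 4.78e-09). It was lower in +N than in control (-2.93 ± 0.25, adjusted p = 5.57e-09), whereas +P gave 0.24 ± 0.25 (adjusted p = 0.631). JGI-582389, an ABC transporter ATPase, was at 21.3 and 23.7 CPM in +P, 11.8 to 20.8 CPM in control and 2.27, 2.32 and 3.39 CPM in +N. Its log2 fold change was -3.12 ± 0.28 (adjusted p = 1.35e-08), and both of its +P libraries lay above all control libraries. The other members of this set, JGI-453295, JGI-383544, JGI-612001, JGI-327559 and JGI-518536, had no annotation. The first 4 of them had at most 3 reads in each +N library, with ratios of +P to +N between 14.6 and 28.96 and lower 95% counting limits between 5.18 and 11.5. Fitted log2 fold changes of JGI-383544 ran from -5.45 without +N replicate 1 to -3.38 without +P replicate 2, that of JGI-327559 was -4.51 without +N replicate 2, and that of JGI-612001, whose 2 reads in +N were both in replicate 1, was -3.21 without +N replicate 2.

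**Figure D2:**
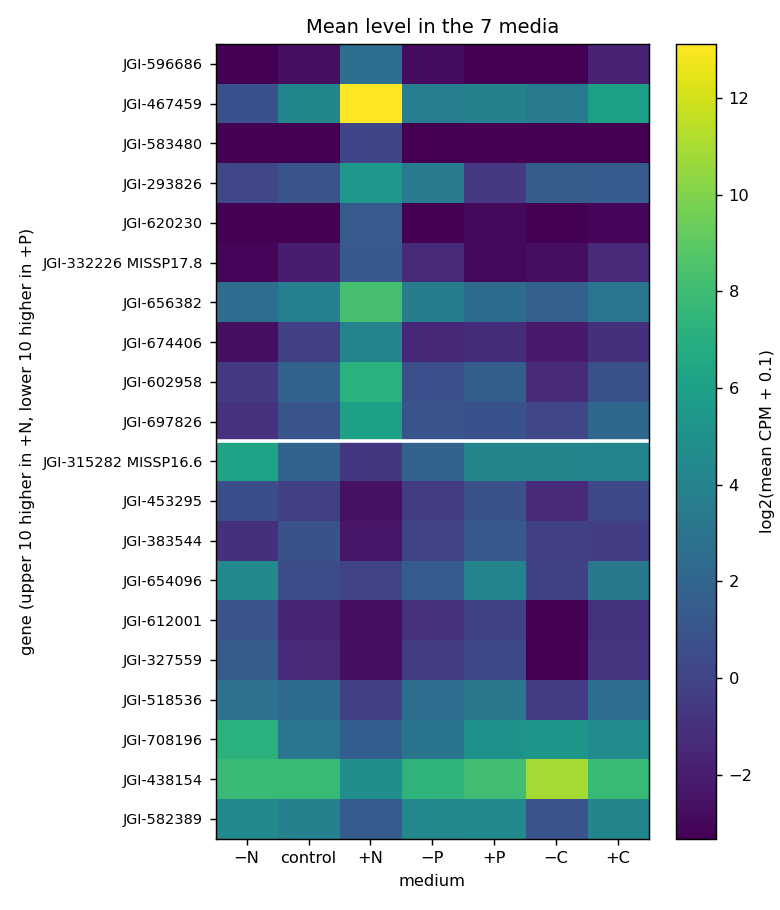
Mean level, as log2(mean CPM + 0.1), of the 10 genes with the largest fold in favour of +N (upper rows) and the 10 in favour of +P (lower rows) in the 7 media; n = 2 libraries for +P and 3 for each other medium. The upper genes are highest in +N in every row, whereas several lower genes are highest in −N, such as MISSP16.6 with 74.7 CPM.

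Across all 7 media the 2 sets of genes over 4-fold differed in where their level was highest, which was counted after the values had been seen and without a test. The genes had been selected by the difference between +N and +P, which in part fixes where their level is highest, and the shares over all tested genes were not counted. Of the 179 genes higher in +N, 168 (93.9%) had their highest mean of all media in +N. Of the 102 genes higher in +P, 28 (27.5%) had it in +P and 47 (46.1%) in −N, where no ammonium salt was present, and 69 had their lowest mean in +N. MISSP16.6 reached 74.7 CPM in −N, JGI-708196 143 CPM and JGI-654096 21.8 CPM, against means of 17.5, 33.4 and 17.002 CPM in +P. JGI-438154 was highest with reduced glucose (−C), at 1903 CPM.

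The most abundant transcripts also differed. JGI-455116, with no annotation, took 9912, 13179 and 9514 CPM in +N and 1220 and 1552 CPM in +P (log2 fold change 2.97 ± 0.19, adjusted p = 1.05e-10). With 2439 to 3303 CPM, the control lay between both media, +N being higher than control (1.97 ± 0.15, adjusted p = 1.76e-09) and +P lower (-0.998 ± 0.17, adjusted p = 0.000497). The same order, +N above control above +P, was seen in the means of JGI-660307, JGI-399510 (LbCipC1) and JGI-658227, which were higher in +N than in +P by log2 fold changes of 1.74, 1.74 and 1.73. In the opposite direction, JGI-293272, an unannotated gene with the highest level among the called genes, was at 32076 and 29203 CPM in +P and at 12932, 15372 and 13245 CPM in +N (log2 fold change -1.15 ± 0.16, adjusted p = 6.46e-06). An ABC transporter, JGI-630286, of a class of pumps that use ATP to move compounds across membranes, was at 1327 and 1165 CPM in +P and 261, 291 and 271 CPM in +N (log2 fold change -2.18 ± 0.17, adjusted p = 2.27e-09). JGI-487613 and the AAA ATPase JGI-663358 were higher in +P, with log2 fold changes of -1.13 and -0.85. The heat shock protein 70 gene JGI-656443, a chaperone, had -0.48 ± 0.13 (adjusted p = 0.00582), which was lost without +P replicate 1 (adjusted p = 0.119).

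The ammonium transporters split by member. Of 7 tested members 3 were higher in +N, 2 were higher in +P and 2 were not called, and their median log2 fold change was -0.0045. JGI-188643 (LbAMT1.1a) had the highest level of these members in control and +P, but not in +N. It was at 103, 108 and 106 CPM in +N, 545 and 505 CPM in +P and 890, 938 and 1108 CPM in control. No library of one medium overlapped with another, and the log2 fold change was -2.31 ± 0.11 (adjusted p = 1.80e-12). Against control, it was lower in both media, with log2 fold changes of -3.21 ± 0.11 in +N (adjusted p = 3.01e-15) and -0.90 ± 0.11 in +P (adjusted p = 1.28e-05). JGI-190906 (LbAMT1.2) was at 174, 184 and 180 CPM in +N and 336 and 246 CPM in +P (log2 fold change -0.70 ± 0.12, adjusted p = 6.84e-05).

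Other members of this family were higher with surplus ammonium. JGI-313221 (LbAMT2.3c) was at 57.9, 65.5 and 63.5 CPM in +N and 5.75 and 6.14 CPM in +P, with 6.46 to 10.1 CPM in control (log2 fold change 3.39 ± 0.29, adjusted p = 8.56e-09). JGI-484007, annotated as an Rh-like ammonium transporter, was at 18.1, 13.8 and 18.5 CPM in +N and 1.12 and 1.49 CPM in +P (log2 fold change 3.65 ± 0.39, adjusted p = 2.13e-07). For both genes +P did not differ detectably from control, with log2 fold changes of -0.43 ± 0.30 (adjusted p = 0.437) and -0.42 ± 0.44 (adjusted p = 0.638). JGI-255304 (LbAMT1.1b), which had the lowest control level of the symbol-bearing members, was at 6.28, 5.79 and 6.95 CPM in +N and 3.43 and 2.18 CPM in +P (log2 fold change 1.195 ± 0.22, adjusted p = 0.000205). JGI-300932 (LbAMT2.1) had means of 26.4 ± 1.82 CPM in +N (SD, n = 3) and 26.6 ± 4.02 CPM in +P (SD, n = 2), and JGI-331747 (LbAMT2.2) 6.13 ± 0.856 and 8.60 ± 3.00 CPM; the libraries of the media overlapped in both (adjusted p = 0.985 and 0.517).

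**Figure D3:**
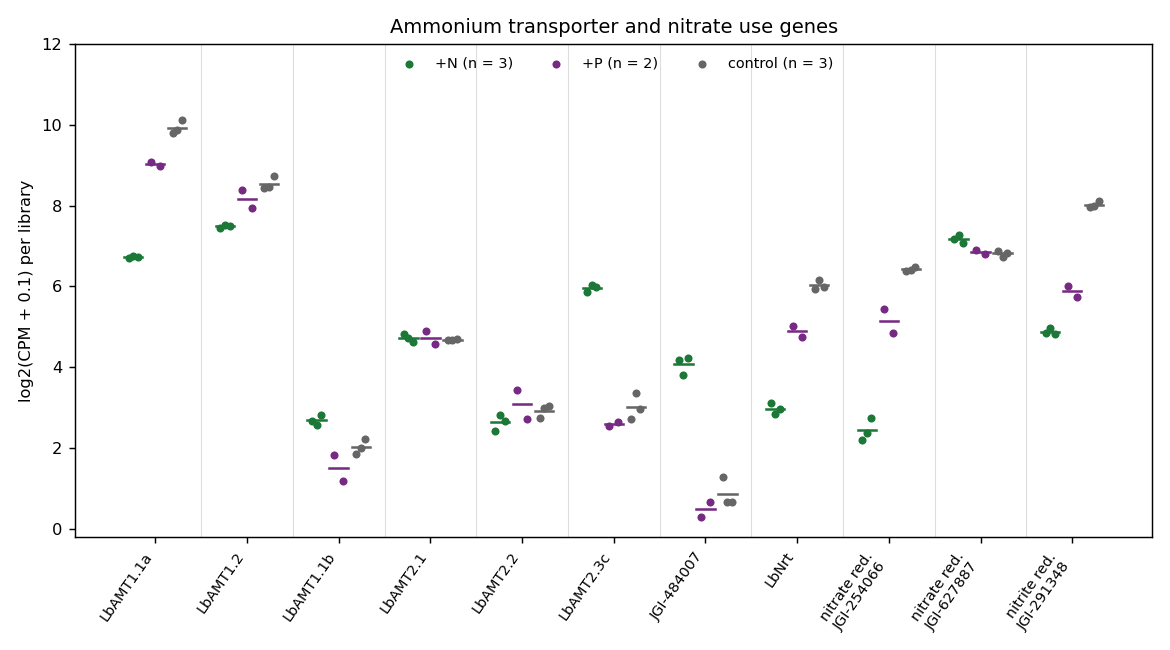
Level of 7 ammonium transporter and 4 nitrate use genes in each +N (n = 3), +P (n = 2) and control (n = 3) library, as log2(CPM + 0.1); points are libraries and bars their means on that scale. LbAMT1.1a, LbNrt and JGI-254066 decline from control over +P to +N, whereas LbAMT2.3c and JGI-484007 are high in the +N libraries alone.

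Of 4 genes for the use of nitrate, 3 were lower in +N than in +P and 1 was higher, and the same 3 were lower than control in both media. The nitrate transporter JGI-254042 (LbNrt) was at 8.55, 7.08 and 7.64 CPM in +N, 32.6 and 26.9 CPM in +P and 60.96 to 70.9 CPM in control (log2 fold change -1.95 ± 0.17, adjusted p = 1.15e-08). JGI-254066, with the molybdenum and cytochrome b5 domains of nitrate reductase, was at 4.46, 5.06 and 6.601 CPM in +N and at 43.4 and 28.7 CPM in +P (log2 fold change -2.75 ± 0.21, adjusted p = 1.86e-09), against 83.6 to 88.9 CPM in control. The nitrite reductase JGI-291348, which forms ammonium from nitrite, was at 28.4, 31.3 and 28.3 CPM in +N and 64.6 and 53.3 CPM in +P (log2 fold change -0.996 ± 0.23, adjusted p = 0.00155).

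Set beside the control, the same genes fell in both media. The log2 fold changes of +N against control were -3.08 for LbNrt, -4.02 for JGI-254066 and -3.15 for JGI-291348, and those of +P were -1.14, -1.27 and -2.15, with adjusted p-values of at most 9.09e-05 in these 6 comparisons. No nitrate salt was named among the ingredients of these media. A second gene annotated with nitrate reductase activity, JGI-627887, differed from this order, with 145, 156 and 135 CPM in +N and 119.8 and 112 CPM in +P (log2 fold change 0.33 ± 0.09, adjusted p = 0.0095), a call that was lost without +P replicate 2 (adjusted p = 0.0942).

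Among 8 tested genes of ammonium assimilation, 3 were higher in +N, 1 was higher in +P and 4 were not called (median log2 fold change 0.31). The glutamate dehydrogenase JGI-309733 was at 29.3, 31.6 and 29.1 CPM in +N and 7.21 and 8.60 CPM in +P, with 10.9 to 12.1 CPM in control (log2 fold change 1.92 ± 0.17, adjusted p = 1.30e-08). A more abundant gene with glutamate dehydrogenase domains, JGI-292653, was not in this list and went the other way. Its means were 37.5 CPM in +N and 154 CPM in +P, with 462 to 674 CPM in control, and it is described further at the end. The glutamine synthetase gene with the highest level, JGI-183088, was at 910, 1057 and 859 CPM in +N, 1481 and 1311 CPM in +P and 2067 to 2609 CPM in control. It was thus lower in +N than in +P (log2 fold change -0.57 ± 0.11, adjusted p = 0.000528) and lower than control in each. JGI-684579 and JGI-191578, 2 further genes annotated with glutamate-ammonia ligase activity, were higher in +N by log2 fold changes of 0.60 ± 0.09 (adjusted p = 2.30e-05) and 0.28 ± 0.08 (adjusted p = 0.00728), and the latter call was lost without +P replicate 2 (adjusted p = 0.113).

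Transporters of amino acids and peptides moved in both directions, 9 of 27 being higher in +N, 8 higher in +P and 10 not called, with a median log2 fold change of 0.075. The amino acid permease JGI-296817 was at 14.8, 16.9 and 15.03 CPM in +N and 3.69 and 2.52 CPM in +P (log2 fold change 2.35 ± 0.20, adjusted p = 1.05e-08). JGI-254728, with an annotation as polyamine transporter, was at 20.9, 22.6 and 21.7 CPM in +N and 5.49 and 3.33 CPM in +P (log2 fold change 2.34 ± 0.24, adjusted p = 1.53e-07). In the other direction, JGI-188015 had means of 137 ± 8.17 CPM in +P and 72.8 ± 2.40 CPM in +N (SD, n = 2 and 3), which gave a log2 fold change of -0.92 ± 0.07 (adjusted p = 2.64e-09), and JGI-182249 128 ± 17.04 and 59.1 ± 2.78 CPM (-1.11 ± 0.12, adjusted p = 2.84e-07).

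Of 11 tested genes of phosphate use 5 were higher in +N, 2 were higher in +P and 4 were not called, with a median log2 fold change of 0.43. The count higher in +P was 1 without +P replicate 1 and 3 without +N replicate 1, and the count higher in +N was 4 without +P replicate 2. The histidine acid phosphatase JGI-474696, of a class that releases phosphate from organic compounds, was at 182, 205 and 174 CPM in +N, 40.1 and 54.6 CPM in +P and 40.5 to 62.2 CPM in control (log2 fold change 1.98 ± 0.14, adjusted p = 5.72e-10). It was higher in +N than in control (1.90 ± 0.12, adjusted p = 7.79e-11), and +P against control gave -0.08 ± 0.14 (adjusted p = 0.805). The acid phosphatase JGI-665992 was at 56.3, 55.3 and 52.98 CPM in +N and 33.6 and 27.8 CPM in +P (log2 fold change 0.84 ± 0.14, adjusted p = 6.10e-05). JGI-297291, annotated with phosphate transmembrane transport, was the larger in level of the 2 phosphate transporter genes in this list. It had means of 97.1 CPM in +N, 47.4 CPM in +P and 59.9 CPM in control (log2 fold change 1.05, adjusted p = 8.42e-05), and was picked for mention after its values were seen. The list holds annotated genes only, and the paper counts more putative phosphate transporters in the genome.

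The 3 genes named polyphosphate phosphatases in the study did not move together. JGI-317181 (LbPPX1) was at 60.1, 64.6 and 59.5 CPM in +N and 32.8 and 34.8 CPM in +P (log2 fold change 0.86 ± 0.11, adjusted p = 3.61e-06). Against control +P was lower (-0.64 ± 0.11, adjusted p = 0.000658) and +N gave 0.22 ± 0.10 (adjusted p = 0.092). JGI-708028, also annotated as an inositol polyphosphate phosphatase, was at 101, 100.5 and 103 CPM in +N and 177 and 138 CPM in +P, a difference in the opposite direction (log2 fold change -0.63 ± 0.09, adjusted p = 1.70e-05). JGI-589527 was higher than control in both media, with log2 fold changes of 0.71 ± 0.09 in +N (adjusted p = 1.40e-06) and 0.36 ± 0.10 in +P (adjusted p = 0.0192). Its difference between the media, 0.35 ± 0.10 (adjusted p = 0.00863), was lost without +P replicate 2 (adjusted p = 0.125).

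Of 17 tested genes for chitin and N-acetylglucosamine, 10 were higher in +N, 1 was higher in +P and 6 were not called, with a median log2 fold change of 0.46. Without +P replicate 1 the counts were 6 and 0. The chitinase JGI-674406 described above had the highest log2 fold change of the list, followed by acetylglucosaminyltransferases, which transfer N-acetylglucosamine to sugar chains. JGI-647187 was at 245, 302 and 240 CPM in +N and 27.2 and 21.05 CPM in +P (log2 fold change 3.46 ± 0.19, adjusted p = 1.21e-11). JGI-697826 was at 62.4, 69.4 and 58.6 CPM in +N and 1.80 and 1.55 CPM in +P (log2 fold change 5.26 ± 0.38, adjusted p = 5.76e-10), and JGI-584757 differed by 1.80 ± 0.17 (adjusted p = 3.26e-08). Against control +P gave log2 fold changes of 0.06 for JGI-647187, -0.14 for JGI-697826 and -0.03 for JGI-584757, none of them called. JGI-310136, a glycoside hydrolase, was higher in +N by 1.80 ± 0.17 (adjusted p = 3.82e-08). The single member higher in +P, the chitin synthase JGI-239741, differed by -0.38 on the log2 scale (adjusted p = 0.00946).

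Protease inhibitors of one and the same family were found at both ends. Of 10 tested genes, 4 were higher in +N, 4 were higher in +P and 2 were not called. All 8 but 1 of the called genes were annotated as clitocypins, mushroom inhibitors of cysteine proteases. JGI-602958 was at 144, 171 and 125 CPM in +N and 1.46 and 4.65 CPM in +P (log2 fold change 5.49 ± 0.45, adjusted p = 5.03e-09), JGI-293826 at 44.7, 48.2 and 38.04 CPM and 0.343 and 0.803 CPM (6.14 ± 0.63, adjusted p = 1.19e-07), and JGI-326016 at 17.7, 16.02 and 15.02 CPM and 0.429 and 0.459 CPM (5.16 ± 0.56, adjusted p = 2.62e-07). Without +P replicate 2 the log2 fold change was 6.65 for JGI-602958 and 6.96 for JGI-293826. The inhibitor of family I66, JGI-295829, was at 53.4, 49.6 and 42.1 CPM in +N and 3.69 and 3.67 CPM in +P (log2 fold change 3.72 ± 0.23, adjusted p = 8.12e-11).

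The 4 clitocypins higher in +P, which were picked for mention after their values were seen, had smaller log2 fold changes. With a minimum of 10 reads in each of the 20 libraries, 1 inhibitor was called higher in +N. JGI-382297 was at 14.8 and 19.3 CPM in +P and 5.29, 3.84 and 5.82 CPM in +N (log2 fold change of -1.83, adjusted p = 0.00147), and JGI-318727 at 12.6 and 12.1 CPM and 5.29, 3.97 and 5.38 CPM (-1.37, adjusted p = 9.01e-06). JGI-326015 gave a log2 fold change of -1.20 (adjusted p = 0.00197) and JGI-385833 of -1.64 (adjusted p = 0.000631). In JGI-385833 the control, at 15.7 to 17.9 CPM, lay above both media. The genes of this family are related in sequence. Reads were allowed to map to several transcripts, and unique and total counts were both made by the authors, but which of them was deposited is not given in the sources used here, so that levels of single members are uncertain where copies are nearly identical.

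**Figure D4:**
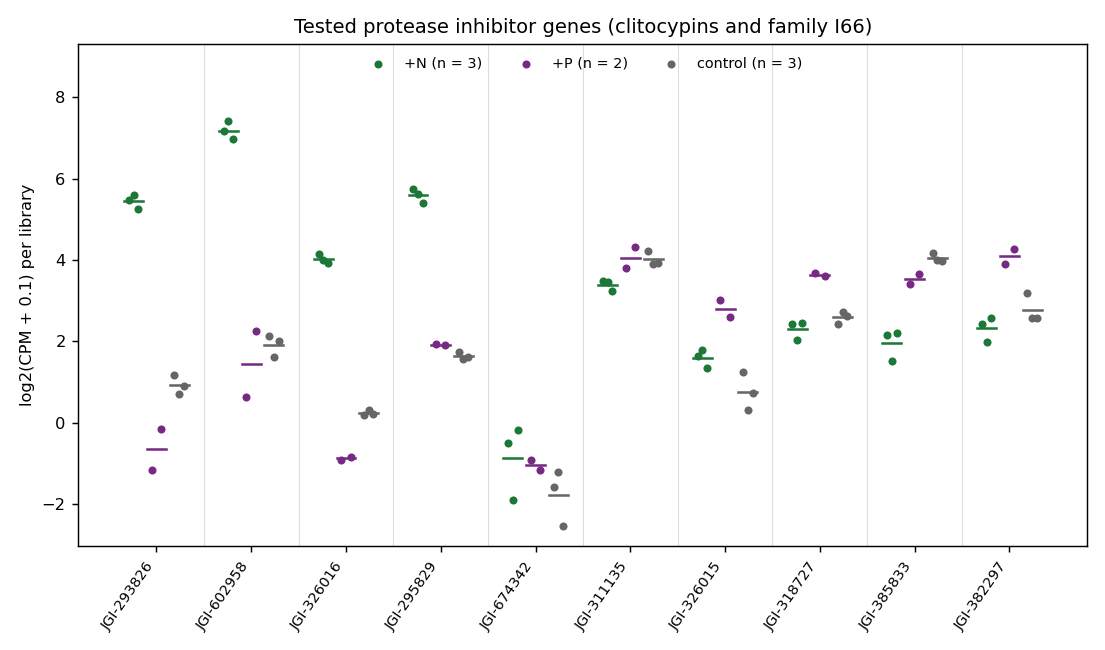
Level of the 10 tested protease inhibitor genes in each +N (n = 3), +P (n = 2) and control (n = 3) library, as log2(CPM + 0.1), ordered by their fold change; points are libraries and bars their means on that scale. The 4 genes on the left are high in +N alone, and in the 4 on the right the +P libraries lie above all +N libraries.

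Of 17 tested aspartic proteases 1 was higher in +N, 4 were higher in +P and 12 were not called (median log2 fold change -0.14). JGI-302848 (LbPR_A1), an aspartyl protease of family A1, was at 52.8 and 47.02 CPM in +P and 19.3, 16.02 and 17.4 CPM in +N, with 13.9 to 28.4 CPM in control (log2 fold change -1.51 ± 0.23, adjusted p = 1.94e-05). JGI-449804 was higher in +P (log2 fold change -1.90 ± 0.26, adjusted p = 5.09e-06). JGI-483465 had -0.89 ± 0.25 (adjusted p = 0.00889), a call that was lost without +P replicate 2 (adjusted p = 0.0648) and after all libraries were thinned to the smallest read total (adjusted p = 0.053). JGI-144077 (LbPR_A11), the member higher in +N, had 0.89 ± 0.09 (adjusted p = 5.20e-08), and its annotation also names a tRNA ligase.

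The mycorrhiza-induced small secreted proteins, a class of secreted effectors of which some act in the colonised root, were divided evenly. Of 29 tested members 9 were higher in +N, 9 were higher in +P and 11 were not called, and the median log2 fold change was -0.055. With a minimum of 10 reads in each of the 20 libraries the counts were 3 and 5. Most members were expressed at low levels in free-living mycelium. An exception was JGI-295730 (MISSP29.4), at 1166, 1242 and 1089 CPM in +N and 614 and 500.3 CPM in +P (log2 fold change 1.07 ± 0.12, adjusted p = 2.58e-07). Another exception, JGI-295729, went the other way, with 735 and 745 CPM in +P and 351, 427 and 285 CPM in +N. It was picked for mention after its values were seen. JGI-485570 was at 60.4, 52.9 and 57.8 CPM in +N, 18.9 and 17.1 CPM in +P and 30.7 to 40.5 CPM in control (1.67 ± 0.16, adjusted p = 3.26e-08). Chosen after their values were seen, JGI-395403 (annotated MiSSP13.2) with 91.0 and 89.4 CPM in +P and 18.7, 25.7 and 17.8 CPM in +N, and JGI-388224 (annotated MiSSP8) with 0.172 and 0.287 CPM in +P and 2.95, 3.54 and 4.26 CPM in +N, show both directions.

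Hydrophobins, small proteins that coat hyphae with a water-repellent layer, gave 3 calls among 9 tested members, all higher in +N. JGI-335058 (LbH13) was at 11.8, 14.9 and 15.5 CPM in +N and 1.12 and 1.72 CPM in +P (log2 fold change 3.27 ± 0.28, adjusted p = 8.45e-09). JGI-241509 (LbH12) was at 5.90, 4.73 and 8.77 CPM in +N and had 5 reads and no read in the +P libraries (log2 fold change 5.11 ± 0.81, adjusted p = 3.87e-05). Its log2 fold change was 3.87 without +P replicate 2, and without +P replicate 1 no read was left in +P. The third, JGI-389286, gave a log2 fold change of 1.65 ± 0.62 (adjusted p = 0.0476). Its call was lost without any one of the 3 +N replicates (adjusted p = 0.0647 to 0.0859). With all libraries kept, it was also lost with upper quartile scaling (adjusted p = 0.0593) and with no filter (adjusted p = 0.0506). Its log2 fold change was 1.05 without +P replicate 1 and 3.23 without +P replicate 2. With a minimum of 10 reads per library, 1 hydrophobin was called. JGI-399293 (LbH1) had means of 1.94 CPM in +N and 2.85 CPM in +P and was not called (adjusted p = 0.111).

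Of 11 tested mating pheromone and receptor genes, 5 were higher in +N, 1 was higher in +P and 5 were not called, with a median log2 fold change of 1.29. Without +N replicate 1, +N replicate 3 or +P replicate 1 the counts were 3 and 0, and with a minimum of 10 reads per library 2 were higher in +N. Basidiomycetes use such lipopeptide pheromones and G protein-coupled receptors to recognise mates. The receptor gene JGI-632625, of the STE3 type, was at 150.4, 160 and 158 CPM in +N, 42.9 and 45.6 CPM in +P and 59.8 to 74.2 CPM in control (log2 fold change 1.82 ± 0.10, adjusted p = 2.42e-11). The receptor JGI-255149 (Lbrcb6) was at 5.90, 5.56 and 8.51 CPM in +N and 1.03 and 1.43 CPM in +P (2.38 ± 0.31, adjusted p = 2.83e-06), and the pheromone JGI-313028 (Lbphb) at 9.45, 6.02 and 10.9 CPM and 1.03 and 1.72 CPM (2.61 ± 0.54, adjusted p = 0.000652). A further pheromone gene, JGI-399545, had 1.45 ± 0.49 (adjusted p = 0.026), and lost its call without +N replicate 1, +N replicate 3 or +P replicate 1 (adjusted p = 0.0617, 0.0703 and 0.257), and its log2 fold change was 2.35 without +P replicate 2.

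Of 15 tested sugar transporters 5 were higher in +N, 2 were higher in +P and 8 were not called, with a median log2 fold change of -0.092. JGI-704867, a sugar symporter, was the most abundant of those named, at 1369, 1328 and 1317 CPM in +N, 253 and 214 CPM in +P and 173 to 194 CPM in control (log2 fold change 2.52 ± 0.15, adjusted p = 3.51e-11). JGI-460233 was at 42.8, 46.7 and 43.7 CPM in +N and 5.58 and 6.65 CPM in +P (2.85 ± 0.18, adjusted p = 8.39e-11), and JGI-305352 (LbMST1), a monosaccharide transporter by its symbol, at 46.0, 48.7 and 49.7 CPM and 18.4 and 19.1 CPM (1.36 ± 0.10, adjusted p = 1.44e-09). JGI-600674 was higher in +P (-0.90 ± 0.10, adjusted p = 2.01e-07). Glucose was the same in both media.

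Among 6 aquaporins, channels for water and small solutes, 1 was called. JGI-671860 was at 78.3, 75.4 and 87.2 CPM in +N and 23.2 and 19.8 CPM in +P, with 19.6 to 21.4 CPM in control (log2 fold change 1.90 ± 0.13, adjusted p = 4.26e-10). The other 5 had log2 fold changes between -0.36 and 0.19 and adjusted p-values of at least 0.205.

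Cation pumps and potassium transport were of interest because +P added potassium. Of 17 tested members 2 were higher in +N, 5 were higher in +P and 10 were not called (median log2 fold change -0.26). The count higher in +P was 8 with upper quartile scaling or without +N replicate 2, and 3 without +P replicate 1. The potassium uptake gene JGI-482899 was at 181 and 194 CPM in +P, 161 to 170.3 CPM in control and 61.4, 68.3 and 63.2 CPM in +N (log2 fold change -1.54 ± 0.15, adjusted p = 4.33e-08). It was lower in +N than in control (-1.36 ± 0.14, adjusted p = 7.33e-08), and +P against control gave 0.19 ± 0.15 (adjusted p = 0.505). The proton pump ATPase JGI-179114, a pump of the kind that energises nutrient uptake, had -0.71 ± 0.10 (adjusted p = 1.09e-05) and the cation transporter JGI-187790 -0.69 ± 0.11 (adjusted p = 4.64e-05). JGI-307944 (CDF-B), of the cation diffusion facilitators that move metal ions, was at 18.1, 18.004 and 23.02 CPM in +N and 4.80 and 4.47 CPM in +P (2.08 ± 0.28, adjusted p = 5.43e-06).

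Laccases, multicopper oxidases that act on phenolic compounds, also split. Of 9 tested genes 4 were higher in +N, 2 were higher in +P and 3 were not called, and the count higher in +P was 1 without +N replicate 2 or 3 or either +P replicate. JGI-399752 (lcc10) was at 345, 375 and 321 CPM in +N and 61.9 and 42.5 CPM in +P (log2 fold change 2.74 ± 0.36, adjusted p = 3.47e-06), and JGI-399755 (lcc11) at 5.67, 5.99 and 6.51 CPM and 0.858 and 0.918 CPM (2.75 ± 0.36, adjusted p = 3.71e-06). JGI-399748 (lcc6) was at 73.3 and 75.9 CPM in +P, 34.3 to 52.4 CPM in control and 12.02, 12.8 and 13.8 CPM in +N (-2.53 ± 0.28, adjusted p = 3.48e-07). JGI-399749 (lcc8) was higher in +N by 0.69 ± 0.15 (adjusted p = 0.00125).

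Cytochrome P450 genes, a large family of oxidising enzymes, gave 9 of 36 members higher in +N, 8 higher in +P and a median log2 fold change of 0.0016. JGI-392631 and JGI-385555 were higher in +N by 2.50 ± 0.25 (adjusted p = 6.97e-08) and 2.36 ± 0.17 (adjusted p = 8.78e-10), JGI-393581 by 1.80 ± 0.20 (adjusted p = 3.48e-07), and JGI-185962 was higher in +P (-1.74 ± 0.12, adjusted p = 2.52e-10).

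Heat shock and superoxide defence genes were examined because both media had a raised salt content. Of 29 tested members 4 were higher in +N, 8 were higher in +P and 17 were not called (median log2 fold change -0.17). Without +P replicate 1 the counts were 2 and 4, and the count higher in +P was 4 without +N replicate 1 and 5 without +P replicate 2. A pair of small heat shock protein genes of the Hsp20 type moved in opposite directions. JGI-474714 was at 217, 248 and 176 CPM in +N and 95.6 and 108.96 CPM in +P (1.06 ± 0.14, adjusted p = 4.34e-06), and JGI-384818 at 64.7, 64.4 and 66.4 CPM in +N and 143 and 112 CPM in +P (-0.97 ± 0.13, adjusted p = 6.64e-06). The DnaJ chaperone JGI-668157 was higher in +P (-1.01 ± 0.11, adjusted p = 3.99e-07) but below control in both media. JGI-291347 (LbMnSOD3), a superoxide dismutase, was at 524, 602 and 479.8 CPM in +N and 314 and 385 CPM in +P (0.62 ± 0.11, adjusted p = 0.000135), with a control level of 524.8 to 558 CPM.

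Of 94 tested ribosomal protein genes 31 were higher in +N, 1 was higher in +P and 62 were not called, and the median log2 fold change was 0.24 against -0.018 over all genes. Without +P replicate 1, 19 members were higher in +N, and without +P replicate 2, 6 were higher in +P. JGI-476654 (L37e) was at 347, 409 and 366 CPM in +N and 192 and 239 CPM in +P (log2 fold change 0.79 ± 0.12, adjusted p = 2.99e-05). JGI-483191 (S19e) and JGI-469947 had log2 fold changes of 0.57 ± 0.09 and 0.52 ± 0.09 (adjusted p = 4.64e-05 and 8.36e-05). The member higher in +P was JGI-654096, described above, and apart from it the lowest log2 fold change in the list was -0.40.

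**Figure D5:**
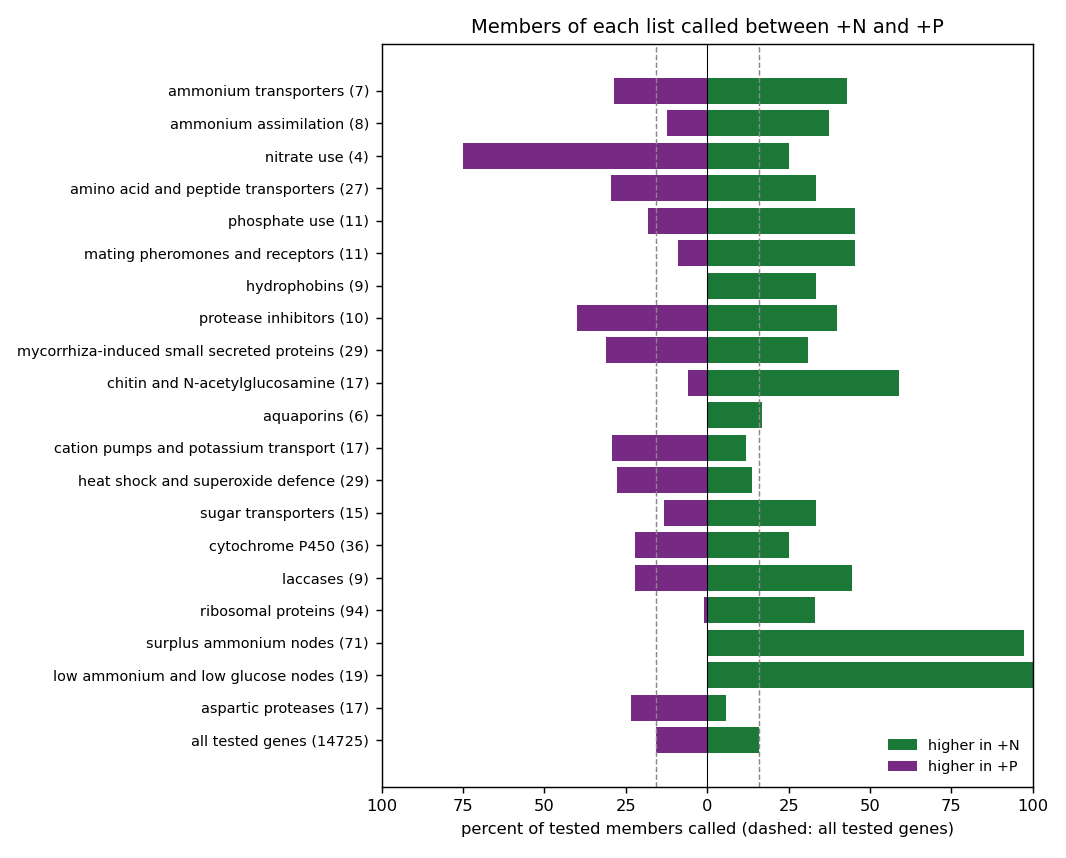
Share of the tested members of each list that was called higher in +N (bars to the right) or higher in +P (bars to the left), in percent, with the number of tested members in brackets. Dashed lines mark the 15.9% of all tested genes called in each direction. Among annotated genes the shares were 21.1% higher in +N and 20.4% higher in +P. The lists of chitin genes and ribosomal proteins extend mainly to the right. So do the lists taken from the study's own gene groups, which were formed from these same libraries.

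The study had grouped genes by their pattern over these same libraries, so that the direction of its groups is not independent evidence. Of 71 genes in its groups for surplus ammonium, 69 were higher in +N than in +P and 2 were not called, with a median log2 fold change of 2.61. The glycoside hydrolase JGI-239749 (family GH24) was at 110.3, 97.9 and 124 CPM in +N and 5.58 and 4.70 CPM in +P (4.44 ± 0.22, adjusted p = 3.27e-12). JGI-388066, without annotation, had 4.38 ± 0.22 (adjusted p = 5.44e-12) and the short-chain dehydrogenase JGI-489449 2.86 ± 0.15 (adjusted p = 8.81e-12). Against control the median log2 fold change of these 71 genes was 2.53 in +N and -0.093 in +P.

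A second pair of groups, which the study defined by lower expression both with little ammonium and with little glucose, held 19 genes, and all 19 were higher in +N than in +P (median log2 fold change 2.19). By the median it was +P that lay away from control here, with a log2 fold change of -1.87 and 17 of 19 genes called lower. In +N the median was -0.038, with 6 genes called higher than control and 4 lower. JGI-458396 was at 30.9, 33.5 and 28.6 CPM in +N, 4.72 and 8.54 CPM in +P and 18.7 to 20.4 CPM in control (2.19 ± 0.20, adjusted p = 2.03e-08). JGI-697229 was at 59.8, 49.3 and 59.1 CPM in +N, 5.32 and 8.14 CPM in +P and 12.6 to 14.6 CPM in control (3.03 ± 0.19, adjusted p = 8.88e-11). JGI-483690 and JGI-394934 had log2 fold changes of 2.40 ± 0.20 and 2.43 ± 0.21 (adjusted p = 4.32e-09 and 1.13e-08).

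Some genes left the control level in the same direction and to a similar extent in both media, and 5 of these with the smallest difference between +N and +P were listed. JGI-303550 (MISSP10.4) was at 80.2, 94.1 and 73.7 CPM in +N, 106 and 61.5 CPM in +P and 24.8 to 42.6 CPM in control. On the log2 scale it was higher than control by 1.396 ± 0.18 in +N (adjusted p = 2.20e-06) and by 1.4004 ± 0.19 in +P (adjusted p = 4.45e-05). The protein kinase gene JGI-335202 was at 16.4, 15.5 and 14.5 CPM in +N, 15.96 and 13.6 CPM in +P and 49.8 to 59.8 CPM in control. It was lower than control, with log2 fold changes of -1.85 ± 0.12 in +N (adjusted p = 1.69e-10) and -1.92 ± 0.14 in +P (adjusted p = 2.82e-08), and its difference between the media was 0.07 ± 0.15 (adjusted p = 0.76). JGI-682714 and JGI-141932, an alpha-mannosidase by annotation, were higher than control in both media, and JGI-398729 was lower, with log2 fold changes between +N and +P from -0.058 to 0.071. No medium with 25 mM of another salt was included, so that a response to added salt cannot be told apart from responses to surplus ammonium and phosphate that coincide.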

How the data were processed

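Raw read counts per gene model were used as deposited; the authors had mapped reads of polyadenylated RNA (stranded kit, both ends sequenced over 150 bases) to the L. bicolor v2 transcripts of JGI with CLC Genomics Workbench. Several hits per read were allowed and the authors determined unique and total read numbers; which of these the deposited counts hold, and whether strand was used, is not given in the sources used here. RPKM values that the authors deposited beside the counts were not used. Counts were TMM-scaled, filtered with filterByExpr and fitted for all 20 libraries with edgeR 4.0.16 (R 4.3.3) quasi-likelihood F-tests, +N against +P, with Benjamini-Hochberg adjustment over 14725 genes; a gene was called at an adjusted p-value under 0.05. SE is the fold change divided by the square root of F. On simulated counts the procedure was tested. Ratios with at most 3 reads per library in one group carry exact binomial 95% intervals, which cover counting error only, and a group without reads was set to 3 reads per library.

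Named were the 10 genes per direction with the largest fold (media not overlapping, and 10 or more reads per library in the medium with the higher level), the 5 per direction with the largest CPM difference, all ammonium transporter, nitrate use and polyphosphate phosphatase genes, up to 4 members of every other list by smallest adjusted p-value, and 5 genes changed alike in both media. Genes and lists were chosen with earlier results of these data known. Alternatives were other scalings, filters, libraries in the fit, depth, DESeq2 1.42.0, a replicate block and leaving out single libraries. Groups of 2 and 3 libraries limit precision, and a lone +P library was assumed to vary like the other groups.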

Additional observations from a re-analysis of the deposited data

How the results depend on the processing

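With DESeq2 4648 genes were called, of which 4524 were also called in the reported fit, and no gene called in both differed in sign. This also held under every other setting, which gave 3134 to 4903 calls. With only the +N and +P libraries in the fit there were 4247 calls. Leaving out single libraries gave 3134 to 4347 calls, 1630 to 2289 higher in +N, 1504 to 2170 higher in +P, 160 to 248 over 4-fold higher in +N and 97 to 110 over 4-fold higher in +P, with the lowest of each range without +P replicate 1. Requiring at least 10 reads in each library left 117 and 54 genes over 4-fold higher in +N and +P, since genes silent in one medium are then not tested. Tested against a 4-fold limit within the model, 60 and 11 genes passed.

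Replicate numbers were shared by the groups, and the deviations of same-numbered +N and +P libraries from their group means gave r = -0.093 and -0.31 across genes. The differently numbered +N replicate 2 and +P replicate 1 gave r = 0.31. With only 2 +P libraries their deviations mirror each other, so these values cannot decide whether libraries of different media were handled together. With the replicate block 4453 genes were called and no named gene lost its call. The third principal component, an axis of variation in log2 CPM with 12.7% of the variance, spread replicates within several media. On it the +P libraries were at 11.8 and -10.1, the +C libraries at 24.6, -13.0 and -11.3 and the control libraries at 12.9, 7.76 and 42.8. The −N libraries lay closer together, at -19.2, -16.4 and -15.1. What this component reflects was not tested.

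Of 1527 values of 111 named genes under the alternatives, 1492 kept direction and call and 16 lost the call. The 19 changes of sign all concerned genes not called between the media. JGI-300932 had log2 fold changes of 0.0024 (relative log expression scaling), 0.0028 (no filter), 0.0085 (10 reads in each library), 0.0020 (thinned libraries) and 0.0043 (DESeq2). JGI-303550 had 0.0026, 0.0035 and 0.011 under the first 3 of these and 0.084 with the replicate block, where JGI-141932 had -0.025. Leaving out single libraries gave -0.16 to 0.15 for JGI-300932, -0.35 to 0.43 for JGI-303550, -0.14 to 0.069 for JGI-398729, -0.037 to 0.18 for JGI-141932 and -0.045 to 0.18 for JGI-335202. On the mean CPM scale, the control was nearer to or beyond +P in 73.2% of genes higher in +N, 64.2% of those higher in +P, and 91.6% and 47.1% of those over 4-fold. With a prior count of 0.5 the mean distances were 61.2 within +N, 67.2 within +P, 98.3 between them, 92.05 and 75.5 to control, and 66.6 from +P to +C.

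Of 560 list counts 35 moved by more than 1.5 times. With 2 +P libraries, differences of transcripts at a few reads per library were limited by depth.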

Other observations

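Some annotated gene groups outside the lists were picked after their values had been seen, and are described without a test. Glutathione S-transferases, which couple glutathione to reactive compounds, were higher in +P in 8 of 9 tested genes and higher in +N in none, with a median log2 fold change of -1.34. JGI-674829 was at 808 and 711 CPM in +P, 694 to 776 CPM in control and 323, 289 and 290.1 CPM in +N (adjusted p = 2.49e-09). JGI-379253 was at 430 and 442 CPM in +P and 125, 104 and 125 CPM in +N (adjusted p = 2.97e-10), and JGI-616925 at 101 and 93.6 CPM and 26.4, 32.1 and 25.5 CPM (adjusted p = 1.50e-11). Of 25 tested ABC transporters, pumps driven by ATP, 14 were higher in +P and none higher in +N, with a median of -0.59. JGI-399829 was at 912 and 861 CPM in +P, 655 to 788 CPM in control and 200.4, 219 and 187 CPM in +N (adjusted p = 4.89e-12), and JGI-392638 at 934 and 815 CPM in +P and 191, 225 and 195 CPM in +N (adjusted p = 7.28e-10). Of 7 terpenoid synthases, enzymes of isoprenoid products, 4 were higher in +P and none higher in +N. Of 77 major facilitator transporters, a large family of membrane carriers, 22 were higher in +N and 17 higher in +P, with a median of 0.0039. For comparison, 21.1% of annotated genes were higher in +N and 20.4% higher in +P.

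Single enzymes of amino acid and carbon metabolism lay below control in both media, or split. JGI-292653, with glutamate dehydrogenase domains, was at 39.6, 38.5 and 34.4 CPM in +N, 202 and 107 CPM in +P and 462 to 674 CPM in control (adjusted p = 5.71e-06 between the media), whereas the glutamate dehydrogenase JGI-309733 of the report was higher in +N. The malate synthase JGI-314107, an enzyme of the glyoxylate cycle, was at 49.6, 50.3 and 52.9 CPM in +N, 192 and 219 CPM in +P and 494 to 655 CPM in control (adjusted p = 0.000114). The 2 phenylalanine ammonia-lyase genes were opposite, JGI-184628 being at 279, 307 and 259 CPM in +N and 65.6 and 58.2 CPM in +P (adjusted p = 2.53e-12), and JGI-291120 at 13.8, 13.5 and 13.6 CPM in +N and 62.9 and 63.6 CPM in +P (adjusted p = 7.34e-09).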
